A study of Mus musculus with 104 samples.

Results

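Cytosines followed by guanine (CpGs) that were highly methylated in 3 tissues of young mice were followed from before birth. They were autosomal CpGs with a value for liver, skeletal muscle and heart, a mean methylation level of at least 85% over the P15 and P20 libraries in each tissue, and tissue means over all libraries that lay less than 20 percentage points apart. Of 27955 autosomal CpGs shared by the 3 tissue tables, 3694 (13.2%) met these limits and are called high CpGs here. The 3 tables together held 91022 CpGs. The CpGs were thus selected on their measured levels at P15 and P20, so those levels are a description, and tests used only the libraries from E18.5 to P10.

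Methylation was measured by reduced representation bisulfite sequencing (RRBS), which reads CpGs near the CCGG sites cut by the enzyme MspI, in C57BL/6 mice (C57BL/6J in the study's methods) with no treatment or engineered allele in the labels. Whole liver, muscle and heart were sampled before birth (E18.5, stage label E18) and at postnatal days 1, 5, 10, 15 and 20 (P1 to P20), with 23, 24 and 18 libraries in the 3 tissues and 3 to 5 in each group. Heart libraries used here came from P1, P5, P15 and P20 alone. All animals shared this 1 inbred strain, and each library was a bulk tissue, in which a change in the mix of cell types and a change of level within a cell type cannot be told apart.

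Methyl groups on CpGs are copied after DNA replication by the maintenance enzyme Dnmt1 and placed newly by Dnmt3a and Dnmt3b. In mammalian cells most CpGs outside promoters and CpG islands are methylated, and such sites lie in gene bodies, intergenic DNA and repeats. The fetal liver is also a site of blood formation, so it holds many blood precursors beside hepatocytes, and these leave around and after birth. In the study's histology, blood-forming cells were still a large part of the liver at P5 and few by P10. Muscle and heart do not host blood formation.

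Lists of tissue marker genes held few CpGs near their start sites, so they gave no firm check of the tissue labels. CpGs within 1000 bp of the start sites of the skeletal muscle list had a level of 22.9% ± 9.09 (SD, n = 4) in muscle and 45.5% ± 4.60 (SD, n = 4) in liver at E18.5, over 10 CpGs of 3 genes and 13 CpGs of 4 genes. Those of the heart list stood at 16.6% ± 4.17 (SD, n = 4) in heart and 65.6% ± 8.14 (SD, n = 4) in liver at P1, over 3 CpGs of 3 genes and 4 CpGs of 2 genes. In muscle at P1 the heart list stood lower than in heart, at 8.10% ± 4.62 (SD, n = 5) over 4 CpGs of 2 genes. The CpGs were not the same in each tissue, so these levels are only a rough check. The skeletal muscle list did not set muscle apart from heart, with 19.5% ± 4.00 (SD, n = 5) and 19.6% ± 8.87 (SD, n = 4) at P1. The liver list had such CpGs at 1 gene only, and these went against the pattern, with 59.3% ± 7.82 (SD, n = 4) over 4 CpGs in liver and 5.98% ± 5.25 (SD, n = 4) over 2 CpGs in heart at P1. The share of high CpGs without a value, which the authors' limit of 10 reads sets, lay between 0% and 70.1% per library, so the libraries differed in depth. Only 152 of the 3694 high CpGs had a value in every library.

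The high CpGs lay as single sites or in short runs. With neighbours at most 200 bp apart counted together, they formed 2271 groups, of which 1420 held 1 CpG and 44 held at least 5. In 9 cases both strands of 1 site were measured. The group with the most, 15 high CpGs among 31 measured CpGs, spanned 753 bp of chromosome 2 at the gene model Gm10800. On mm9 this span matched itself best at an offset of 234 bp, with 62.6% identity. The 50 bp windows of 11 of its CpGs occur once in mm9 and those of the other 4 at 2 places. Copies absent from the assembly would not be counted, and no value was missing for this group in any library. Whether its reads came from a single locus was not tested. The next groups lay in genes. In Dhx8, an RNA helicase of splicing, 11 high CpGs filled 125 bp of exon sequence, and every CpG measured there in all 3 tissues was high. In Ksr2, a scaffold of the Ras signalling pathway, all 9 CpGs measured within 149 bp of exon sequence were high. Introns of Pdzrn4, Dnahc1 and Ppa2 held 10, 8 and 7.

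Both are shown because they are the exon groups with the most high CpGs. Each sequence is the plus strand of mm9 and capitals mark the high CpGs. Dhx8 shows 10 capital sites for its 11 high CpGs because 1 site was measured on both strands.
Dhx8 exon, chr11:101599518-101599658: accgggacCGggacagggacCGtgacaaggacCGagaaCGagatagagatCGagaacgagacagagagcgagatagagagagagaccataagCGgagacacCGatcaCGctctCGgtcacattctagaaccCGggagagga
Ksr2 exon, chr5:118158000-118158164: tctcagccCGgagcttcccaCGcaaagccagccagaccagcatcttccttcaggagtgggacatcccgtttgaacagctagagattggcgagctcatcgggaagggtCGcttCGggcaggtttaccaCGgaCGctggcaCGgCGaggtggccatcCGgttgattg

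Among the high CpGs with a value in every library, those with the lowest and those with the highest liver level at E18.5 are shown next, with the CpG in capitals, because the text returns to their surroundings. The first 3 had the lowest levels and the last 3 the highest.
Mapk8ip2 exon, chr15:89289335-89289394: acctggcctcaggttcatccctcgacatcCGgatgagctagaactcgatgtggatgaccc
intergenic DNA, nearest start site Gm10295, chr7:78032858-78032917: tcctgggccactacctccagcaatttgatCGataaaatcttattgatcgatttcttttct
Adh1 intron, chr3:137953246-137953305: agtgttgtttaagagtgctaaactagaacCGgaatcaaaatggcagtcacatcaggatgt
Eftud1 intron, chr7:89920470-89920529: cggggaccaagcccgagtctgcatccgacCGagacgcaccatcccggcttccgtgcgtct
intergenic DNA, nearest start site F13a1, chr13:37259456-37259515: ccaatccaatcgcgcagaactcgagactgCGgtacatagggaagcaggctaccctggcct
intergenic DNA, nearest start site 3110082D06Rik, chr17:41854769-41854828: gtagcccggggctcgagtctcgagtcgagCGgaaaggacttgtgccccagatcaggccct

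The central 50 bp of the last of these 6 windows occur at 3 places in mm9, so this CpG may also stand for more than 1 locus. The other 5 windows occur once.

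The high CpGs were found less often near start sites than other measured CpGs. Of them, 153 (4.14%) lay in the 1000 bp before a transcript start, compared with 6.97% of all shared CpGs, and 952 (25.8%) lay in exons, compared with 18.4%. Introns held 1109 (30%) and intergenic DNA 1480 (40.1%), compared with 33.8% and 40.8% of all shared CpGs. The median distance to a protein-coding start site was 23561 bp, and over all shared CpGs it was 16934 bp. CpG density differed little in the middle, with a median of 10 other CpGs within 200 bp on either side of a high CpG and 9 over all shared CpGs. The share of shared CpGs that were high was 9.95% with 0 to 4 other CpGs in that window, 19.1% with 15 to 19, and lower again with 20 or more, 366 of 3530. On single chromosomes 9.20% (chromosome 11) to 18.6% (chromosome 10) of the shared CpGs were high. These shares follow from the choice of CpGs and were not tested.

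In the list of germ line genes, many of which are known to be silenced by promoter methylation in other tissues, 11 genes had 31 shared CpGs and 2 genes held high ones. These were the testis tubulin genes Tuba3a and Tuba3b, with 9 high CpGs between them, a count to be read beside the 13.2% of all shared CpGs that were high. Tuba3b alone had high CpGs within 1000 bp of its start, 6 of them, 240 to 277 bp from the start in untranslated exon sequence. Tuba3a and Tuba3b are closely related copies, and the 50 bp windows around these 6 CpGs each occur once in mm9. The CpG 240 bp from the start stood at 78.0%, 88.6% and 91.4% in the 3 liver libraries with a value at E18.5, at 90.3%, 87.0% and 100% in liver at P10, and at 100% in all 4 muscle libraries at E18.5. It is a single example, and levels of the others near this start are not given here. The homeobox and developmental regulator list held 1 high CpG among 126 shared CpGs of 39 genes, in Pax5, a factor of B cells. The liver list had 1 high CpG among 6 (in F2, which encodes prothrombin), the skeletal muscle list 2 among 24 (in Ryr1, the muscle calcium release channel) and the heart list 2 among 16 (in Ryr2, its heart form). The haematopoietic list had 5 among 13, all at Runx1, a regulator of blood formation. The imprinted list had 5 among 74, at Igf2r and Peg10, and the DNA methylation list 4 among 21, at Dnmt3l, a partner of the new methylation enzymes, and Tet2, which oxidises methyl groups.

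The liver level lay below that of muscle before birth and overlapped it at P10. In liver the mean over the high CpGs was 83.4%, 81.7%, 82.4% and 81.2% in the 4 libraries at E18.5 and 85.0%, 84.4%, 86.1% and 85.5% at P1. It was 88.3%, 90.7%, 89.1% and 87.1% at P5, and 91.4%, 92.2% and 92.9% at P10. Every library of one age lay above every library of the age before. The group means were 82.2% ± 0.953 (SD, n = 4), 85.2% ± 0.751 (SD, n = 4), 88.8% ± 1.51 (SD, n = 4) and 92.2% ± 0.793 (SD, n = 3). At P15 and P20, the ages that chose the CpGs, the liver means were 92.6% ± 0.870 (SD, n = 3) and 92.8% ± 0.552 (SD, n = 5). The library with the most missing values at E18.5, replicate 14 with 42.1% of the high CpGs missing, stood at 82.4%, inside the range of the others.

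In muscle the mean was 90.8% ± 0.763 (SD, n = 4) at E18.5, 91.0% ± 0.593 (SD, n = 5) at P1, 91.0% ± 0.381 (SD, n = 3) at P5 and 91.3% ± 0.986 (SD, n = 4) at P10. The 4 muscle libraries at E18.5 stood at 90.1%, 91.9%, 90.5% and 90.6%, and the 4 at P10 at 91.8%, 91.9%, 91.5% and 89.8%, so the ages overlapped. In heart the mean was 90.6% ± 0.508 (SD, n = 4) at P1 and 90% ± 0.534 (SD, n = 4) at P5. The values at P15 and P20 were 92.5% and 92.0% in muscle and 92.7% and 92.1% in heart. The median difference into P15 over the high CpGs was 0.707 points from P10 in muscle and 2.29 points from P5 in heart, and choosing CpGs on their P15 and P20 values raises such differences. The liver comparison of E18.5 with P10 involves no library that set the level limit. It is not free of the choice, since P10 lies next to the ages that chose the CpGs. The range limit also used every library.

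**Figure D1:**
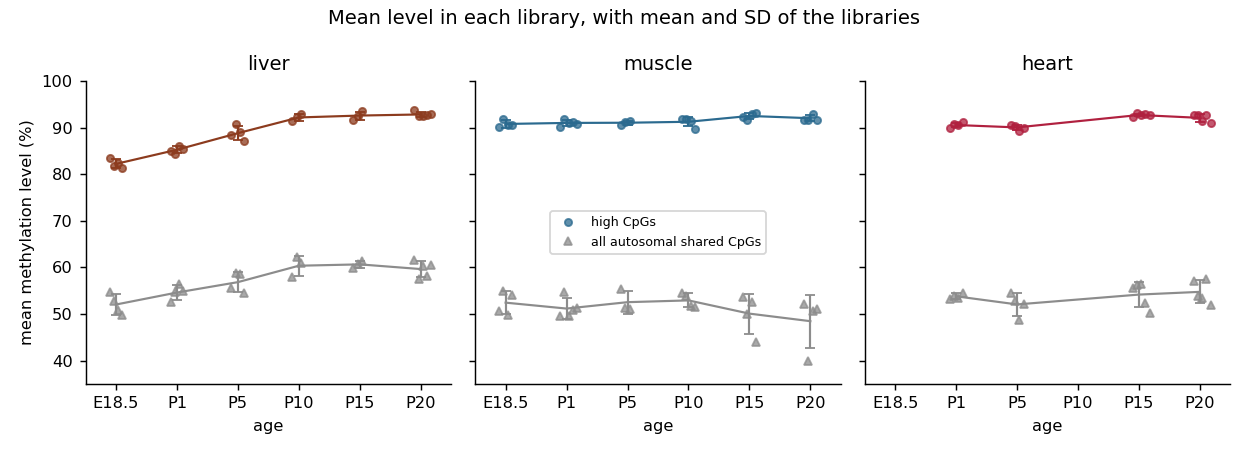
Mean methylation level (%) of the high CpGs (coloured circles) and of all 27955 autosomal shared CpGs (grey triangles) in each library of liver, muscle and heart by age, with the mean and SD of the libraries. The high CpGs in liver lie between 81.2% and 83.4% at E18.5 and between 91.4% and 92.9% at P10, and the muscle libraries overlap between the ages.

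The spread among the high CpGs also narrowed in liver. At E18.5 their liver levels, as means over libraries, ran from 39.1% to 98.9%, with a median of 83.1% and a 5th percentile of 67.5%. At P10 the median was 93.3% and the 5th percentile 81.9%. Below 80% lay 1321 high CpGs (35.8%) at E18.5 in liver, 777 at P1, 292 at P5 and 119 (3.22%) at P10. In muscle 268 (7.26%) lay below 80% at E18.5 and 214 at P10, and in heart 182 (4.93%) at P1 and 268 at P5. The liver at E18.5 thus had 1321 such CpGs where muscle of the same age had 268.

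**Figure D2:**
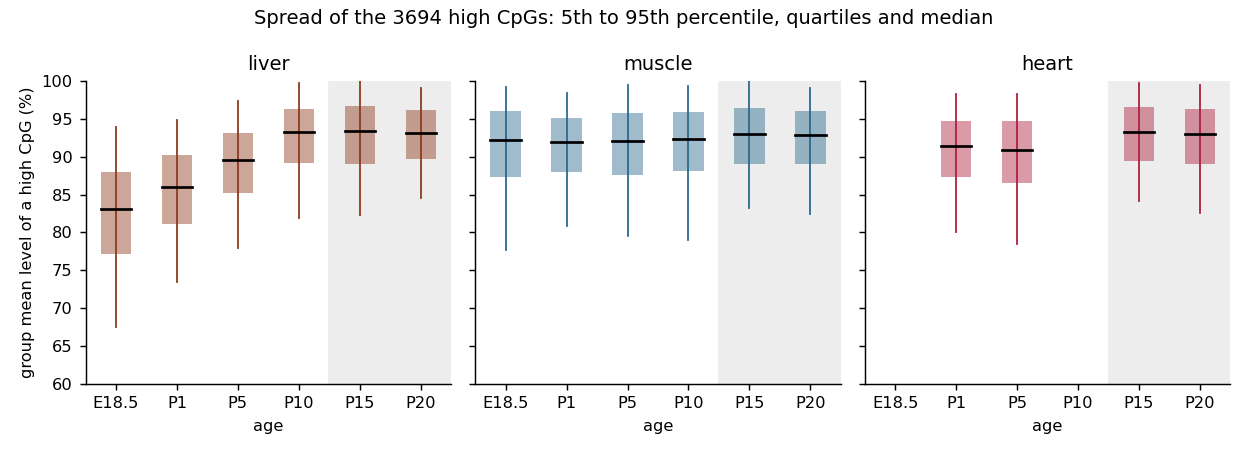
Spread of the 3694 high CpGs in each tissue and age: the line runs from the 5th to the 95th percentile of the group mean levels (%), the box covers the quartiles and the black bar is the median. The grey field marks P15 and P20, which chose the CpGs. The liver box at E18.5 has the lowest median, 83.1%, and overlaps that of liver at P1.

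CpG by CpG, the median difference in liver between E18.5 and P10 was 9.44 points, and 3304 of the 3694 high CpGs (89.4%) were higher at P10. Over all autosomal shared CpGs the median was 8.17 points and 75.7% were higher, so much of this difference was common to the measured genome. The steps were 2.76 points from E18.5 to P1, 3.33 from P1 to P5, 3.31 from P5 to P10 and 0.233 from P10 to P15. By more than 10 points, 1753 high CpGs (47.5%) were higher at P10 than at E18.5 and 20 (0.541%) were lower. Over all autosomal shared CpGs these shares were 43.9% and 7.85%. Choosing CpGs that were high in liver at later ages leaves few that fell. In muscle the median difference between the same ages was 0.129 points, with 378 (10.2%) over 10 points higher and 301 (8.15%) lower. Over all autosomal shared CpGs the muscle median was 0.437 points, with 18.6% over 10 points higher and 16.8% lower.

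The tests used limma's moderated test of the methylation fractions. Calls were made per CpG when its difference exceeded 5 points and its p, adjusted by Benjamini and Hochberg's method over all CpGs tested, did not exceed 0.1. Counts are over the 3704 CpGs that met the level limit at P15 and P20, before the limit on the range of the tissue means, since that limit used every library and took out 10. Between E18.5 and P10 in liver, 327 of 3697 CpGs tested rose and 1 fell. Among all CpGs tested in liver, 7.61% were called, 7.16% as rising and 0.447% as falling, and the 327 are 8.85%. Choosing CpGs that were high in liver at P15 and P20 leaves out those that fell and stayed low. The choice thus sets part of the direction. The 327 CpGs had a median liver level of 71.9% at E18.5, 82.4% at P1, 87.3% at P5 and 95.5% at P10. They were picked for this difference, which raises the P10 value, and stood at 92.9% at P15 and 91.7% at P20. In muscle the median of the same CpGs was 90.3% at E18.5 and 91.0% at P10. Of them 133 lay in intergenic DNA, 111 in introns, 68 in exons and 15 in promoters, in 172 genes. The count depended on single libraries: it was 160 without replicate 6 and 117 without replicate 15 at E18.5, and 183, 95 and 68 without replicates 1, 2 and 4 at P10. With only these 7 libraries in the fit it was 142. Labels do not say whether the libraries came from separate litters, so p-values measure the spread between these samples.

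No CpG of the set was called between E18.5 and P10 in muscle (limma, 3695 tested, 200 at an unadjusted p under 0.05), where 0.00654% of all tested were called, 0.00218% as higher and 0.00436% as lower. On the logit scale 1 was called. None was called between P1 and P5 in liver, muscle or heart, with 251, 113 and 116 at an unadjusted p under 0.05 of 3704, 3702 and 3704 tested. The percentage called was 0 in all 3 tables, and an ordinary linear model without moderation also called 0 in each of them and in muscle between E18.5 and P10. Over all liver CpGs tested, 5344 of 70259 had an unadjusted p under 0.05 between these ages.

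The 3 rising CpGs with the smallest p-values are shown as single examples, each with the CpG in capitals.
Col23a1 intron, chr11:51172530-51172589: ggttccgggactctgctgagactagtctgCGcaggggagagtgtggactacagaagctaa
Gm13483 intron, chr2:50270180-50270239: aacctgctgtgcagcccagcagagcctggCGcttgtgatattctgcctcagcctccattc
Ttc7b intron, chr12:101561637-101561696: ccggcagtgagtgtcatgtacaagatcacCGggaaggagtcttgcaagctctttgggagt

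The CpG in an intron of Col23a1, which encodes a transmembrane collagen, had liver levels of 66.7%, 61.1%, 65.2% and 61.9% at E18.5 and 96.9%, 92.3% and 95.5% at P10. The ages did not overlap, which picking by the smallest p favours. The difference was 31.2 points (SE 4.93, limma adjusted p = 0.0153). In the 2 muscle libraries with a value at E18.5 it stood at 94.1% and 100%. The CpG in Gm13483, a gene model, had 73.3%, 71.6%, 80% and 67.6% at E18.5 and 100%, 97.0% and 100% at P10, a difference of 25.9 points (SE 4.21, limma adjusted p = 0.0173). The CpG in an intron of Ttc7b, part of a complex that brings a lipid kinase to the plasma membrane, had 65.5%, 65.1%, 57.1% and 54.4% at E18.5 and 100%, 83.3% and 97.4% at P10. Its difference was 33.0 points (SE 5.66, limma adjusted p = 0.0205). All 3 lie in CpG-poor sequence, with 5, 2 and 3 other CpGs within 200 bp.

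**Figure D3:**
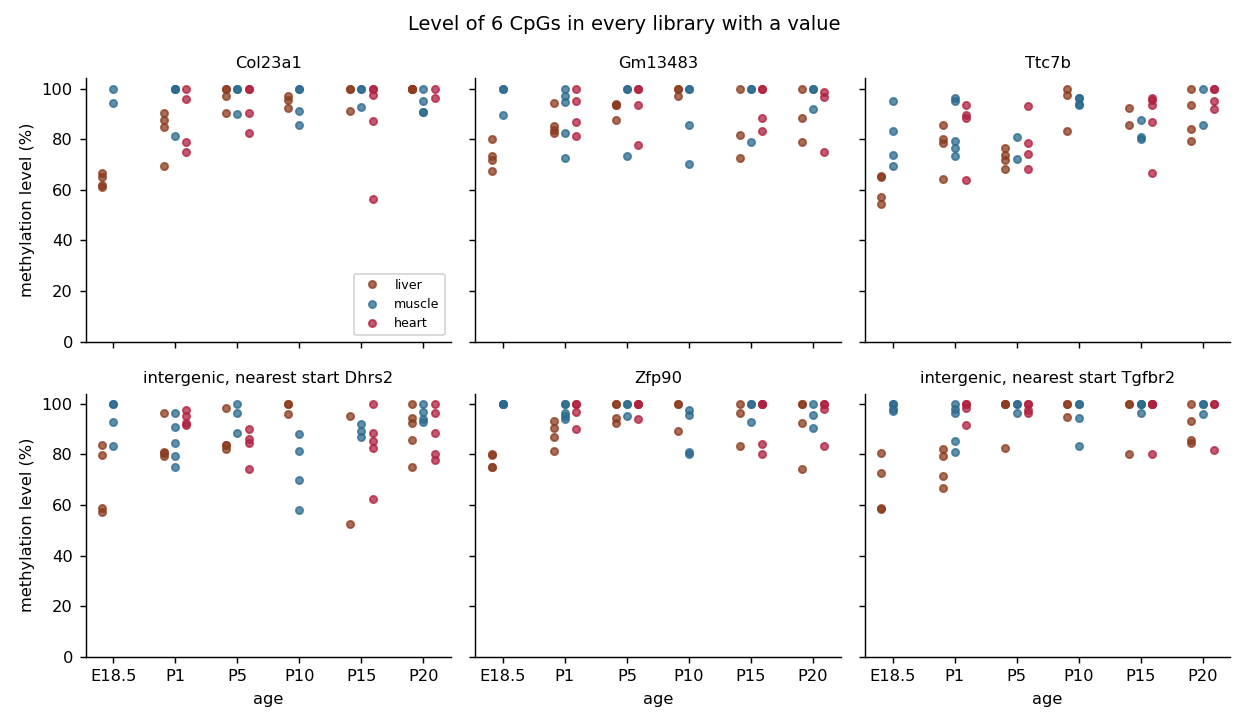
Methylation level (%) in every library with a value at 6 CpGs, by age and tissue: above, the 3 with the smallest p between E18.5 and P10 in liver, and below, the 3 with the smallest p for the difference of that change between liver and muscle. Liver at E18.5 lies below liver at P10 in every panel, as for Col23a1 with 61.1% to 66.7% against 92.3% to 96.9%.

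The liver change could be set against the muscle change where both tissues had values. An interaction term called 36 of 3688 CpGs, all with the larger rise in liver, where 1.42% of the shared CpGs tested were called, 1.31% in this direction and 0.11% in the other. The share of the set was 0.976%, and its order against the background depended on the fit. Without moderation 116 (3.15%) were called, where 2.22% of all were, and among the 723 CpGs that no library lacked 59 (8.16%) were called, where 5.03% of all were. On the logit scale the shares were 0.868% and 0.602%. No CpG of the set was called in the other direction (limma, 16 at an unadjusted p under 0.05). The count was 0 with only these libraries in the fit (limma, 395 at an unadjusted p under 0.05), and it was 23 without liver replicate 6 and 18 without liver replicate 15 at E18.5. Without liver replicates 2 and 4 at P10 it was 15 and 6, without muscle replicates 14 and 15 at E18.5 it was 20 and 23, and without muscle replicates 1 and 4 at P10 it was 59 and 55. At a CpG in an exon of Zfp90, a zinc finger repressor, liver stood at 80.1%, 79.5%, 75% and 75% at E18.5 and at 100%, 100% and 89.2% at P10. Muscle there was 100% in all 4 libraries at E18.5 and 97.7%, 95.5%, 81.0% and 80% at P10. The difference of the changes was 30.5 points (SE 6.41, limma adjusted p = 0.0343), and part of it was a lower level in muscle at P10. At an intergenic CpG whose nearest start site is that of Tgfbr2, a receptor of transforming growth factor beta, liver stood at 58.9%, 58.3%, 72.7% and 80.4% at E18.5 and 94.7%, 100% and 100% at P10. Muscle at E18.5 stood at 100%, 97.8%, 97.0% and 100%, above every liver library of that age. The difference of the changes was 34.9 points (SE 7.87, limma adjusted p = 0.0420), and on the logit scale the adjusted p was 0.124.

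The tissues were next compared with each other at the same age. The median difference of liver minus muscle over the high CpGs was −8.57 points at E18.5, −5.52 at P1, −2.50 at P5 and 0.579 at P10. At E18.5, 3133 of 3694 (84.8%) were lower in liver. Liver minus heart had a median of −4.91 points at P1 and −1.25 at P5, while heart minus muscle had −0.557 at P1. Over all shared CpGs tested the medians were −2.52 for liver minus muscle at E18.5 and 0.162 at P1, −0.957 for liver minus heart at P1 and 0.925 for heart minus muscle at P1, the last with the opposite sign. At E18.5, 635 of 3695 CpGs were called, and all but 10 of them were lower in liver than in muscle, where 21.3% of all shared CpGs tested were called, 10.5% as lower and 10.8% as higher. The lower calls thus made up 16.9% of the set, and the higher calls 0.271%. The count was 333 with only these groups in the fit and 251 among the 723 CpGs that no library of the fit lacked, with 3 and 2 of them higher. With the replicate number as a block it was 0 of 2600 tested (limma, 160 at an unadjusted p under 0.05). Labels do not say whether samples of the same number shared an animal. CpGs close to full methylation have little room to be higher, and the choice of CpGs sets that. At P1, 353 of 3704 were called lower in liver than in muscle and 10 higher (21% of all called, 6.51% as lower and 14.5% as higher). Against heart at P1, 156 were called lower in liver and 9 higher (11.4% of all called, 3.8% as lower and 7.6% as higher), and this count of 165 in both directions fell to 109, 105 and 102 without heart replicates 2, 3 and 5. Heart and muscle at P1 differed at 54, with 21 higher and 33 lower in heart, where 11.9% of all were called, 8.15% as higher and 3.73% as lower. More calls were higher than lower in heart when muscle replicate 1, 2 or 4 was left out, with 26 and 23, 28 and 21, and 28 and 22, so no leading direction is given. The count was 86 on the logit scale and 15 among those 723 CpGs. With the replicate number as a block, liver minus muscle at P1 had 171 calls and liver minus heart 51. The liver comparisons share the liver libraries of each age.

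**Figure D4:**
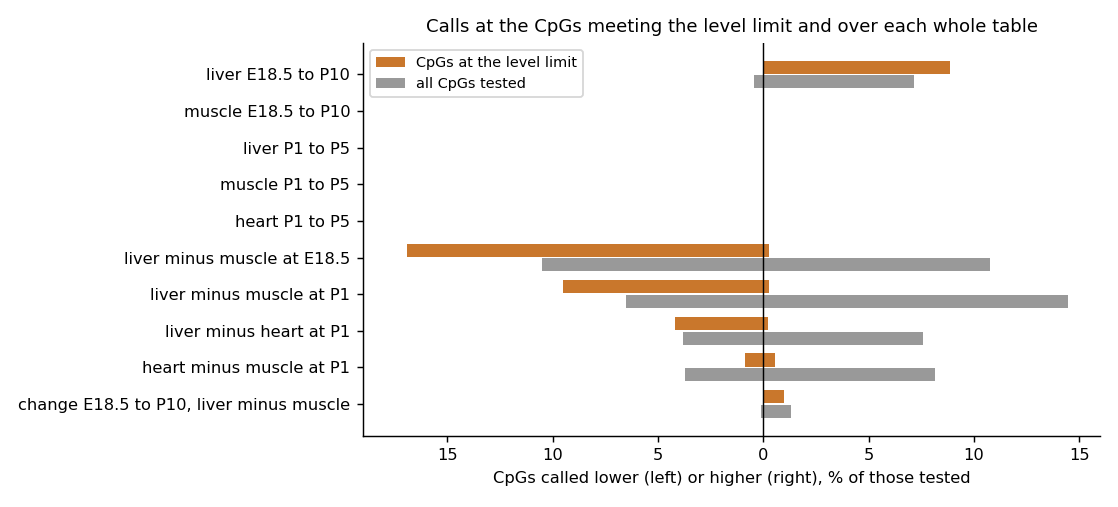
CpGs called in each comparison, as % of those tested, lower to the left and higher to the right: the CpGs at the level limit (orange) and every CpG tested in the comparison (grey). Between E18.5 and P10 in liver 8.85% of the set rose, and at E18.5 16.9% were lower in liver than in muscle.

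At the intergenic CpG nearest to Tgfbr2, the values above gave a difference of liver minus muscle at E18.5 of −31.1 points (SE 5.35, limma adjusted p = 0.000153). In an intron of Zfp74, a zinc finger gene, the liver libraries at E18.5 stood at 72.7%, 78.3%, 52.9% and 55.7% and the 3 muscle libraries with a value at 97.0%, 97.4% and 100%. The tissues did not overlap, which picking by the smallest p favours. The difference was −33.2 points (SE 6.35, limma adjusted p = 0.000552). At an exonic CpG of Wdr92 the difference was −35.6 points (SE 6.64, limma adjusted p = 0.000454), with 50%, 64.3% and 76.4% in liver. That CpG was at 66.7%, 75% and 60% in liver at P10, below all muscle libraries of that age, which had 90.5% to 98.9%. At P1, an intergenic CpG 2773 bp from the start of Trerf1, a regulator of steroid synthesis genes, stood at 22.2%, 60.8%, 57.1% and 84.8% in liver and at 91.4% to 100% in the 5 muscle libraries. Its difference was −40.5 points (SE 7.51, limma adjusted p = 0.000201), with a wide spread within liver.

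The 3 CpGs with the smallest p for liver minus heart at P1 had met the level limit but not the limit on the range. They lay in an intron of Slc2a12, which encodes a glucose transporter, in intergenic DNA nearest to Edn3 and in an exon of Plekhh3. In Slc2a12 liver stood at 35.3%, 59.2%, 54.3% and 56.2% at P1 and heart at 96.3%, 89.7%, 91.3% and 98.7%, a difference of −42.7 points (SE 7.93, limma adjusted p = 0.000547). Between heart and muscle at P1, a promoter CpG 876 bp before Map3k1, which encodes a stress-signalling kinase, stood at 68.0%, 69.2%, 79.2% and 76.2% in heart and at 90.9% to 100% in the 5 muscle libraries, a difference of −23.4 points (SE 4.85, limma adjusted p = 0.00115). Liver at P1 had 84.6% to 100% there.

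The liver level before birth differed with CpG density around the site. High CpGs with 0 to 4 other CpGs within 200 bp (n = 391) had a mean liver level of 77.4% ± 1.75 (SD, n = 4) at E18.5. With 5 to 9 others (n = 1390) it was 80.4% ± 1.13 (SD, n = 4), with 10 to 14 (n = 1042) 83.7% ± 0.950 (SD, n = 4), and with 15 or more (n = 871) 85.6% ± 0.952 (SD, n = 4). The libraries of the sparsest class spanned 75.5% to 79.4% and those of the densest 84.6% to 86.5%. At P10 the same 2 classes stood at 90% ± 1.86 (SD, n = 3) and 93.0% ± 0.720 (SD, n = 3) in liver. In muscle at E18.5 they stood at 89.6% ± 1.10 (SD, n = 4) and 92.5% ± 0.457 (SD, n = 4), and in heart at P1 at 88.6% ± 1.16 (SD, n = 4) and 91.4% ± 0.436 (SD, n = 4). The median difference in liver between E18.5 and P10 was 13 points in the sparsest class and 7.04 in the densest. Across the 3694 high CpGs, which share libraries and can share fragments, Spearman's rho between density and level was 0.338 for liver at E18.5 and 0.173 for muscle at E18.5. The share of values missing in the sparsest class was 8.16% in liver and 10.6% in muscle.

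**Figure D5:**
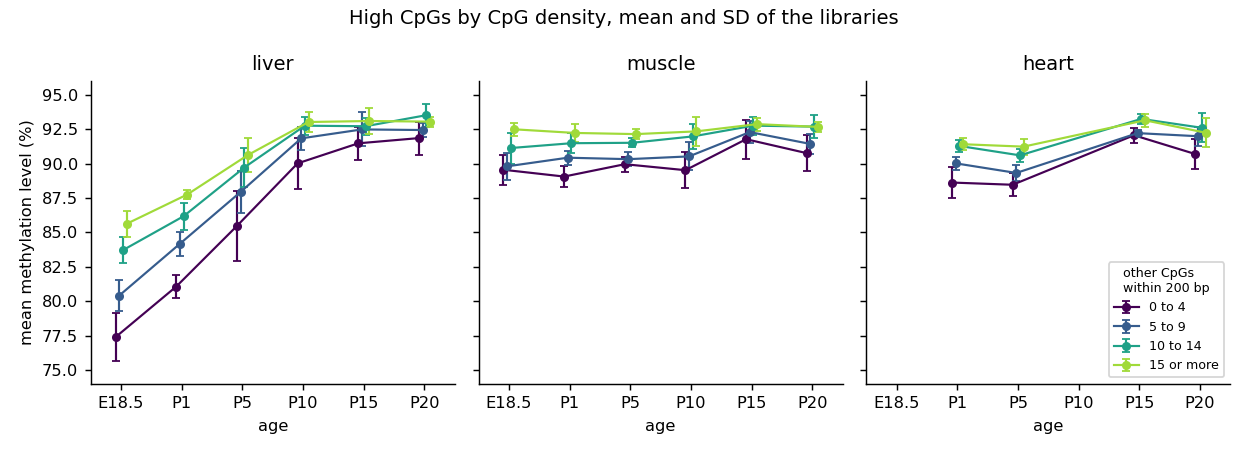
Mean methylation level (%) of the high CpGs by age in liver, muscle and heart, split by the number of other CpGs within 200 bp, with the SD of the libraries. The classes lie between 77.4% and 85.6% in liver at E18.5 and between 90% and 93.0% at P10, and in muscle at E18.5 between 89.6% and 92.5%.

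Calls followed the same order. Between E18.5 and P10 in liver, 60 of 390 CpGs (15.4%) with 0 to 4 others were called, 156 of 1390 (11.2%) with 5 to 9, 68 of 1044 (6.51%) with 10 to 14 and 44 of 873 (5.04%) with 15 or more. Over all shared CpGs the corresponding shares were 12.5%, 9.67%, 6.83% and 4.72%, so the order was not particular to the high CpGs. At E18.5, liver was called lower than muscle at 109 of 390 in the sparsest class and at 95 of 872 in the densest. Over all shared CpGs 16.3% and 6.26% of these classes were called lower, in the same order. By the bases next to the CpG, high CpGs with A or T on both sides (n = 383) had 80.7% ± 1.40 (SD, n = 4) in liver at E18.5, those with C or G on both sides (n = 2074) had 82.1% ± 0.997 (SD, n = 4), and those with 1 of each (n = 1237) had 82.9% ± 0.876 (SD, n = 4). In the sparsest class the first stood at 79.4% ± 2.89 (SD, n = 4) over 23 CpGs and the second at 77.2% ± 1.72 (SD, n = 4), so the order was not kept. By location, promoter CpGs stood at 85.2% ± 0.690 (SD, n = 4), exonic at 84.1% ± 0.668 (SD, n = 4), intronic at 81.8% ± 1.28 (SD, n = 4) and intergenic at 81.0% ± 0.932 (SD, n = 4) in liver at E18.5. High CpGs that were themselves the MspI cut site (n = 1303) stood at 80.4% ± 1.18 (SD, n = 4), compared with 83.2% ± 0.953 (SD, n = 4) at the others. Cut site CpGs were also lower in muscle at E18.5, at 89.4% compared with 91.5%, and how reading the cut end of a fragment bears on this was not tested.

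The sequences printed above for single CpGs show the range. The CpG in an intron of Adh1, an alcohol dehydrogenase of the liver, has 3 other CpGs within 200 bp and stood at 61.5%, 60.8%, 52.6% and 76.5% in liver at E18.5 and at 82.6%, 95.9% and 92.3% at P10. The intergenic CpG nearest to F13a1 has 22 others and stood at 91.8%, 93.3%, 95.9% and 91.8% at E18.5 and at 90.5%, 97.2% and 94.1% at P10. The first lay below its later level in every library, and at the second the ages overlapped. The Mapk8ip2 exon CpG, with 13 others, had 74.3%, 58.5%, 41.2% and 71.4% at E18.5, so density did not order single sites. Of the CpGs with the lowest muscle level at E18.5, that in an intron of Gm2301 stood at 94.1%, 86.8%, 95.7% and 53.8%, with 1 library far below the rest, and that in Fbxo31 at 75%, 79.0%, 81.6% and 81.8%. These CpGs were chosen for their values at E18.5 and are not tested.

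Neighbouring high CpGs had similar liver levels. For 598 pairs of neighbours at most 10 bp apart, close enough to share fragments, Spearman's rho was 0.559 for the liver level at E18.5 and 0.339 for the muscle level. For 736 pairs 11 to 50 bp apart it was 0.476 and 0.184. The 11 CpGs of the Dhx8 exon had a mean of 90.7% ± 3.11 (SD, n = 4) in liver at E18.5 and 92.9% ± 6.83 (SD, n = 3) at P10, a difference within the spread. The 9 in Ksr2 had 85.1% ± 11.3 (SD, n = 4) and 92.8% ± 1.89 (SD, n = 3), also within the spread. The 10 in the Pdzrn4 intron had 89.5% ± 2.17 (SD, n = 4), with libraries between 87.0% and 91.0%, and 94.97% ± 3.06 (SD, n = 3), between 93.1% and 98.5%. The 7 in the Ppa2 intron had 83.1% ± 6.81 (SD, n = 4), between 74% and 90.4%, and 96.2% ± 4.45 (SD, n = 3), between 91.3% and 100%. In these 2 introns the libraries of the ages did not overlap, and differences of whole groups were not tested. The 8 in the Dnahc1 intron, where the 50 bp windows of 2 CpGs occur at 74 and 9 places in mm9, had 87.5% ± 1.85 (SD, n = 4) at E18.5 and 79.5% ± 5.62 (SD, n = 3) at P10. There the ages did not overlap either, in the falling direction, with libraries between 86.4% and 90.3% and between 73.6% and 84.8%. The Gm10800 group on chromosome 2 had 74.6% ± 3.66 (SD, n = 4) at E18.5, 80.3% ± 0.907 (SD, n = 4) at P1 and 86.4% ± 2.75 (SD, n = 3) at P10 in liver, and 88.3% ± 0.795 (SD, n = 4) at E18.5 and 88.4% ± 2.59 (SD, n = 4) at P10 in muscle.

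The low liver level before birth was not confined to CpGs high in every tissue. Shared CpGs that met the 85% limit in liver but were not high CpGs (n = 3355) had a mean liver level of 74.6% ± 1.43 (SD, n = 4) at E18.5 and 86.6% ± 1.94 (SD, n = 3) at P10, and 358 of 3349 tested (10.7%) were called between these ages. CpGs that met it in muscle and heart but not in liver (n = 468) had 74.4% ± 1.2 (SD, n = 4) and 84.7% ± 0.592 (SD, n = 3), with 48 (10.3% of those tested) called, and then stood at 78.4% ± 1.34 (SD, n = 3) at P15. The share of high CpGs called was 8.87%. Levels of the haematopoietic list in liver, over 6 CpGs within 1000 bp of the starts of 4 genes, were 3.58% ± 2.57 (SD, n = 4) at E18.5 and 6.18% ± 1.92 (SD, n = 3) at P10. Their part in the liver result was not tested.

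The 3 CpGs just inside the level limit had a lowest P15 and P20 tissue mean of 85.002%, 85.004% and 85.008%, and 2 just outside it had 84.999%. The 3 just inside the range limit had tissue means 19.1, 19.4 and 19.6 points apart, and the 3 just outside 21.8, 22.1 and 22.3. None of the CpGs measured by locus-specific bisulfite sequencing was a high CpG, the nearest lying 39888 bp away.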

How the data were processed

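Liver, muscle and heart of C57BL/6 mice were profiled by RRBS. The authors digested DNA with MspI, aligned bisulfite reads to mm9 with Bismark 0.7.6 and Bowtie2, set CpGs under 10 reads to missing, and removed CpGs missing in over 20% of samples or under 10% methylated in all. The deposited values are the fraction of methylated reads per CpG and library, shown here as percentages. Read counts were not part of the tables used, so the depth behind a single value is unknown here and no counting interval is given. In addition 22 columns that match no sample used here were not used.

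Group means were fitted with limma 3.58.1 in R 4.3.3 on the fractions, for CpGs with at least 2 values per group, and p-values were adjusted over all CpGs of the comparison. Calls needed a difference over 5 points and an adjusted p no higher than 0.1. Named CpGs were the 3 called with the smallest p in each comparison (at most 1 per kb), the 3 lowest and 3 highest in liver and the 3 lowest in muscle at E18.5 among those with a value in every library, those within 1000 bp of a germ line gene start, those in the 6 groups with the most high CpGs, and the 3 on either side of each limit. The reference marks no repeats in lower case, so repeats were not annotated. The high CpGs and the gene lists were chosen with earlier results of these data known. Scripts were tested on simulated data. Sequences and gene models came from the mm9 reference. Alternatives were the level and range limits, the logit scale, other fits, the mm10 tables and leaving out each library.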

Additional observations from a re-analysis of the deposited data

Results flagged for a closer look

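At the Wdr92 CpG, muscle replicate 9 at E18.5 stood at 96.5% where the other 3 libraries stood at 100%, the ceiling, so any lower value would have been picked out. At the intergenic CpG nearest to Cnot6, heart replicate 2 at P1 stood at 79.4% and the other 3 between 67.2% and 68.8%. These are 2 of 39 groups tested, from E18.5 to P10, for a library far from the others, and chance alone gives about 1 in 20, a rate that does not hold for values tied at 100%.

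The change from E18.5 to P10 differed between liver and muscle at 36 of 3688 CpGs by limma's interaction term, 0.976% compared with 1.42% of all shared CpGs tested. The count was 0 with only these libraries in the fit (limma, 395 at an unadjusted p under 0.05) and 6 without liver replicate 4 at P10. It was 116 without moderation (3.15%, compared with 2.22% of all) and 59 of 723 among CpGs that no library lacked (8.16%, compared with 5.03% of all). The differences of the changes with the smallest p were 48.6 points at the intergenic CpG nearest to Dhrs2, 30.5 points in the Zfp90 exon and 34.9 points at the intergenic CpG nearest to Tgfbr2. At the first of these, muscle stood between 83.3% and 100% at E18.5 and between 57.9% and 88.0% at P10.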

How the results depend on the processing

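The number of high CpGs was 5544 at a level limit of 80%, 1708 at 90% and 3625 to 3709 without single libraries, and 152 had a value in every library. As medians over CpGs, the levels in age order were 84.1, 86.7, 91.0, 94.6, 95.9 and 95.5% in liver, 94.1, 93.4, 93.4, 94.9, 96.2 and 93.8% in muscle, and 92.5, 92.9, 97.3 and 93.9% in heart. With a value in every library they were 90.7, 90.04 and 90.7% in liver from P10, 90.5, 90.9 and 90.3% in muscle at P5, P15 and P20, and 89.3, 89.0, 90.4 and 90.4% in heart. CpGs chosen on P15 alone had 93.6 and 91.9% in liver, 93.2 and 90.7% in muscle at P15 and P20, and 93.3% in heart at P15. Those chosen on P20 alone had 90.8 and 92.9% in muscle and 91.5% in heart at P15. Calls with only the groups compared numbered 142 for liver E18.5 to P10, 333 for liver minus muscle at E18.5 and 0 for the interaction (limma, 395 at an unadjusted p under 0.05). With a value in every library of the fit, which left 723 CpGs to test, they numbered 251 and 103 for liver minus muscle at E18.5 and P1, 38 for liver minus heart, 15 for heart minus muscle and 59 for the interaction. The logit scale gave 1 for muscle E18.5 to P10 and 86 for heart minus muscle, and no moderation gave 116 for the interaction. Without single libraries the counts were 68 to 292 for liver E18.5 to P10, 447 to 562 and 250 to 337 for liver minus muscle at E18.5 and P1, 102 to 162 for liver minus heart, 37 to 50 for heart minus muscle, and 6 to 59 for the interaction. Heart minus muscle changed its leading direction without muscle replicates 1, 2 and 4, with 49, 49 and 50 calls. The causes were not tested.

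Correlations between samples of 1 replicate number lay between −0.0339 and 0.0633, and most samples did not correlate best with their own number. They were taken over differences from the group mean at single CpGs of 1 inbred strain. Low values there cannot exclude that samples of 1 number came from the same animal. With the replicate block, liver minus muscle had 0 calls of 2600 tested at E18.5 (limma, 160 at an unadjusted p under 0.05) and 171 at P1, liver minus heart 51, and heart minus muscle 15 with the leading direction changed. Without read counts the precision of single values cannot be given.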
